A study of Saccharomyces cerevisiae with 116 samples.

Results

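The 10 genes described here encode proteins of the cell wall of budding yeast: CWP1 (YKL096W), CWP2 (YKL096W-A), SED1 (YDR077W), SPI1 (YER150W), CCW12 (YLR110C), CIS3 (YJL158C), TOS6 (YNL300W), PST1 (YDR055W), PIR3 (YKL163W) and YGP1 (YNL160W). They were named one by one, by ORF identifier, out of 6708 ORF rows in the table with spike-in cells, and all 10 are in each of the 3 tables used. They were chosen by their measured RNA levels and ribosome loading in earlier results of these same libraries, across all states and stresses. Their changes are therefore given as descriptions, and the adjusted p-values come from fits across all genes and say nothing about the list. All 10 passed the filter on low counts in every comparison of RNA levels, and 8 of the 10 met the input minimum at each time in the comparison of ribosome loading.

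The study followed strain By4741 (BY4741), grown in rich medium and then exposed to salt (NaCl) or heat. Cells were either dividing asynchronously or had first been arrested or slowed by an added compound. The arrested or slowed cultures had alpha factor (25 uM, 2 h), a mating pheromone that holds cells before DNA replication; nocodazole (10 ug/ml, 2 h, or 3.5 h in a further set), which depolymerises microtubules and holds cells in mitosis; or cycloheximide (2 h, labelled 0.1 or 0.2 with no unit), an inhibitor of translation elongation. T0 libraries precede the stress, and T10 to T60 libraries follow it by a time read here as minutes. A further library labelled t0' exists for each alpha factor and nocodazole time course, with no explanation of the label; the 5 pheromone-response markers summed to 61.1 and 67.3 CPM (counts per 1000000 S. cerevisiae counts of the library) in the alpha factor ones. Of the 116 libraries, 16 are RNA from cells mixed with cells of the fission yeast S. pombe (alpha factor T30 and T0 and asynchronous T30 and T0 with 3 replicates each, and 1 library of each cycloheximide label and time), 50 are RNA without S. pombe, and 50 are the input and 9 gradient fractions of 5 polysome gradients carrying S. pombe RNA (asynchronous T30 and T0 with 2 gradients each, alpha factor T0 with 1). In the unspiked table, the T30 salt group of each 2 h arrest pools a library with no dose label with those labelled 0.5N and 0.7N, and the T10 heat group pools an unlabelled library with those labelled 33c and 37c. Nothing in the labels says that replicates were separate cultures, so p-values measure the spread between these libraries, which may be technical.

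The yeast wall is a network of glucan and some chitin with an outer layer of mannoproteins. Most of these mannoproteins reach the wall through a glycosylphosphatidylinositol (GPI) anchor that is then transferred to glucan; a smaller family, the PIR proteins, is bound through an alkali-sensitive link. The makeup of the mannoprotein layer is known to change with the cell cycle, with the growth phase and with stress, partly through the general stress response and partly through the cell wall integrity pathway. Loading of an mRNA with ribosomes is read from its place in a sucrose gradient: free messenger particles (RNP) and ribosomal subunits (40S, 60S) sediment slowly, single ribosomes (80S) come next, and mRNAs with several ribosomes, here labelled 2R to 6R>, sediment fastest.

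Total counts were 1794997 to 7043273 per unspiked library, 1555271 to 5469230 per spiked library, where S. pombe gave 5.53% to 14.2% of reads, and 365088 to 5081617 per gradient library, where S. pombe gave 5.7% to 49.4%. The strain check held: LEU2, MET17 and URA3, which BY4741 lacks, reached at most 2.47, 2.89 and 1.41 CPM. The 5 pheromone markers summed to 2583 to 7676 CPM in spiked alpha factor libraries, against 60.2 to 124 CPM in spiked asynchronous ones. One library stood apart within its group: the spiked alpha factor T30 library of replicate 2 had the lowest pheromone sum, 2583 CPM, against 4680 and 5074 CPM in replicates 1 and 3, and 223 CPM of the G1 cyclin gene CLN2, against 13.6 and 41.8 CPM (CLN2 was looked at after its values were seen). Results of TOS6 that rest on that library are given with and without it. In the nocodazole salt course, 603 of 5159 genes (11.7%) at T30 and 239 (4.63%) at T45 lay more than 1.5-fold outside both neighbouring times, against 109 (2.11%) and 51 (0.989%) in the alpha factor course. Whether the nocodazole T30, T45, T60 and 0.5N libraries carry exchanged labels was not tested; the unlabelled T30 library and the 0.5N library both enter the nocodazole salt comparison.

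Over the 66 RNA libraries, per kilobase of coding sequence, SED1 had the highest median level, 4173 CPM per kb. CCW12 followed with 2745 CPM per kb and CWP2 with 1319 CPM per kb. CWP1 (349.9), YGP1 (276.4) and SPI1 (245.7 CPM per kb) formed a middle group, PST1 (96.56) and CIS3 (93.53 CPM per kb) came next, and TOS6 (25.18) and PIR3 (20.09 CPM per kb) were lowest. The ranges of all neighbouring genes in this order overlapped widely. SPI1 spanned the widest range of the 8 genes counted above 3 reads in every library, from 2.32 CPM in unheated asynchronous cells to 1902 CPM at T30 in 3.5 h nocodazole, and CIS3 spanned the narrowest, from 19.4 to 334 CPM. CWP1, SED1, SPI1 and YGP1 all had their highest level in the same library, 3.5 h nocodazole at T30, replicate 1. Together the 10 genes made up 0.13% of counts in the alpha factor heat t0' library and 3.70% in that nocodazole library.

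Salt in asynchronous cells was compared over 3 pairs of spiked libraries, T30 against T0. SPI1, CWP1, YGP1, SED1 and PIR3 were higher, and CWP2 was lower. SPI1, a GPI protein related to SED1 and linked to weak-acid tolerance, had 840, 661 and 617 CPM at T30, against 7.34, 10.2 and 8.78 CPM at T0. CWP1, a GPI mannoprotein of the outer layer, had 1136, 1586 and 1280 CPM at T30, against 94.3, 111 and 103 CPM at T0. YGP1, a secreted glycoprotein known from starved cells, had 596, 680 and 685 CPM at T30, against 42.4, 35.1 and 42.5 CPM at T0. For each of these the groups stood far apart. The changes were 6.17 ± 0.27 on the log2 scale for SPI1, 3.56 ± 0.20 for CWP1 and 3.88 ± 0.27 for YGP1 (SE throughout), with adjusted p of 2.79e-08, 1.67e-07 and 6.89e-07 in edgeR's quasi-likelihood test with Benjamini-Hochberg adjustment over all genes.

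SED1, the most abundant message of the 10 and a structural GPI protein of stationary cells, had 2978, 7169 and 5614 CPM at T30, against 807, 1661 and 1147 CPM at T0. It rose by 1.98 ± 0.36 (edgeR adjusted p = 0.000732). PIR3, a PIR protein, had 31.8, 31.1 and 12.9 CPM at T30, against 3.67, 3.11 and 0.976 CPM at T0, where the counts were 13, 17 and 2 reads; it rose by 3.06 ± 0.48 (edgeR adjusted p = 0.000266). CWP2, a small GPI mannoprotein encoded beside CWP1, went the other way, with 252, 448 and 257 CPM at T30, against 613, 773 and 624 CPM at T0, a change of -1.21 ± 0.31 (edgeR adjusted p = 0.00728). The groups did not overlap for any of these 3 genes. In all, 6 of the 10 passed, 5 higher and 1 lower. Of all 5744 genes 41.8% passed in this comparison, 22.2% higher and 19.6% lower. The median change was 0.94 over the 10 and 0.05 over all genes.

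The other 4 did not pass. CCW12, a GPI mannoprotein of growing wall, had 1186, 3175 and 3066 CPM at T30, against 1486, 3345 and 3084 CPM at T0, and PST1, a GPI protein known as a target of the cell wall integrity pathway, had 101, 155 and 107 CPM at T30, against 107, 131 and 115 CPM at T0. CIS3, a PIR protein, had 39.8, 193 and 102 CPM at T30, against 128, 334 and 296 CPM at T0. TOS6, a GPI protein whose gene is a target of the G1/S factor SBF, had 22.3, 129 and 62.4 CPM at T30, against 59.0, 186 and 150 CPM at T0. The ranges overlapped for all 4 genes, yet CCW12, CIS3 and TOS6 were lower at T30 within every pair. For CCW12 the log2 differences within pairs were small, -0.33, -0.07 and -0.01. The replicate numbers pair these libraries. With the pair as a block CIS3 changed by -1.43 (edgeR adjusted p = 7.22e-05), against -1.29 ± 0.62 (edgeR adjusted p = 0.116) without it. TOS6 changed by -1.24 with the block (edgeR adjusted p = 0.00757), against -1.0 ± 0.90 (edgeR adjusted p = 0.411) without it. In the fit with the block 8 genes of the set passed, 5 higher and 3 lower. The 41.8% of all genes belongs to the fit without the block and is not the share beside these calls. No share of all genes is given for the fit with the block. Without the T30 library of replicate 2, CIS3 changed by -2.03 in the unpaired fit (edgeR adjusted p = 0.0352).

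**Figure D1:**
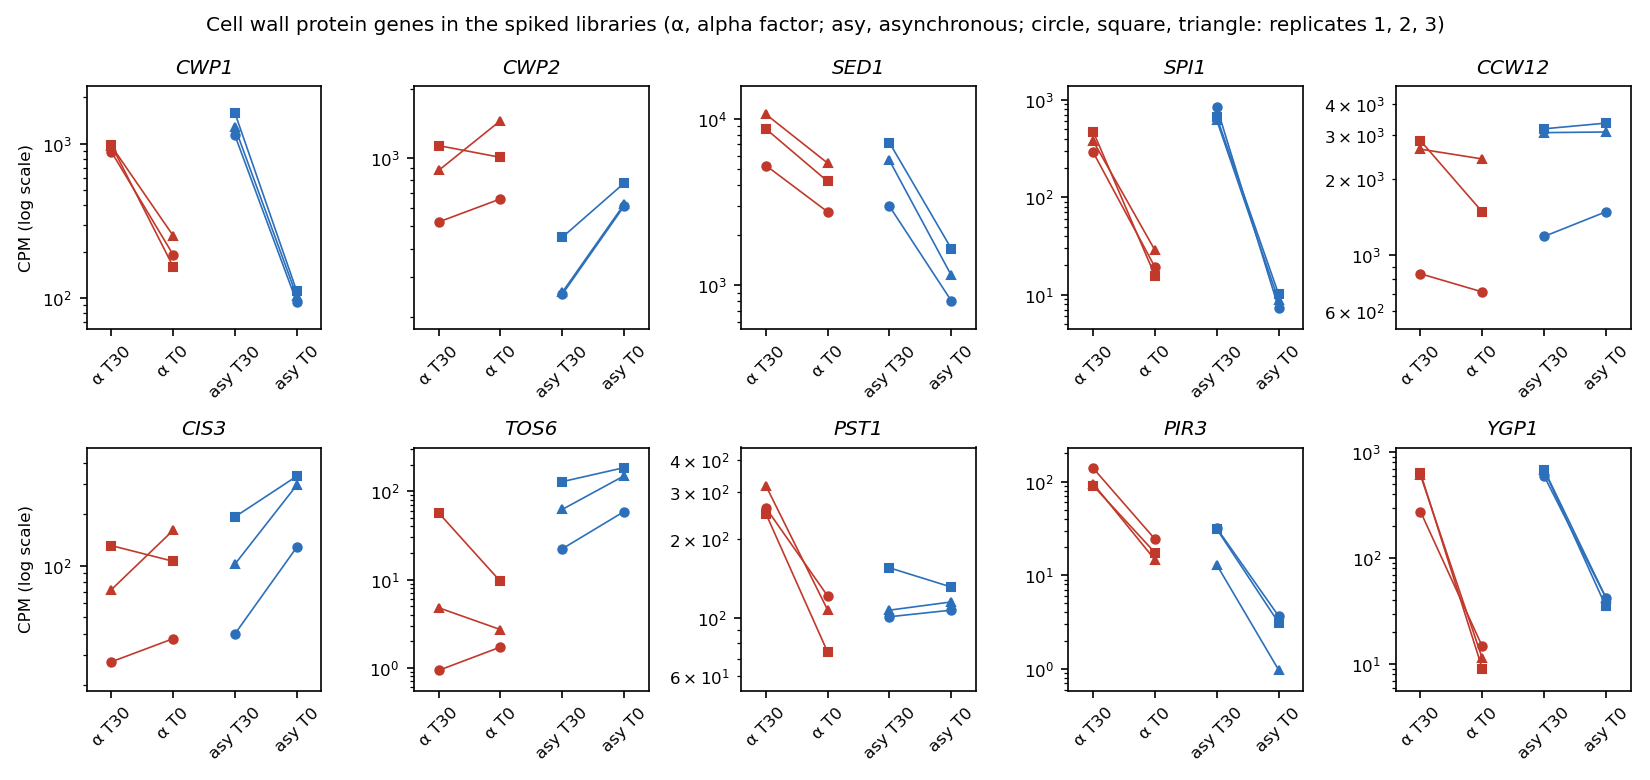
Level of each gene in the spiked libraries, in CPM on log axes, for alpha factor T30 and T0 (red) and asynchronous T30 and T0 (blue); symbols mark replicates 1 to 3 and lines join libraries with the same number. SPI1, CWP1 and YGP1 are higher at T30 in every pair of both states, TOS6 lies at 59.0 CPM or above at asynchronous T0 and at 9.51 CPM or below at alpha factor T0, and the T30 square of alpha factor TOS6 stands apart at 57.1 CPM.

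Salt in alpha factor cells was compared in the same way. YGP1 had 275, 635 and 606 CPM at T30, against 14.7, 9.09 and 11.3 CPM at T0, a rise of 5.30 ± 0.30 (edgeR adjusted p = 6.19e-07). SPI1 had 289, 472 and 377 CPM at T30, against 19.2, 15.7 and 28.6 CPM at T0, a rise of 4.09 ± 0.25 (edgeR adjusted p = 7.65e-07). CWP1 had 889, 983 and 971 CPM at T30, against 191, 160 and 254 CPM at T0, a rise of 2.15 ± 0.19 (edgeR adjusted p = 1.55e-05). These 3 genes again showed no overlap between the groups. PIR3 had 139, 90.5 and 95.0 CPM at T30, against 24.3, 17.4 and 14.6 CPM at T0, and rose by 2.43 ± 0.40 (edgeR adjusted p = 0.00247). PST1, which had not passed in asynchronous cells, had 262, 249 and 318 CPM at T30, against 121, 74.0 and 107 CPM at T0, and rose by 1.36 ± 0.23 (edgeR adjusted p = 0.00272). Thus 5 of the 10 were higher and none was lower, where 9.09% of genes passed, 5.47% higher and 3.62% lower. This fit leaves the replicate pairs out. With them 7 of the 10 were higher and none lower, where 1722 of 5744 genes passed, 807 higher and 915 lower. The median change was 1.63 over the 10 and 0.00 over all genes.

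SED1 in alpha factor cells had 5235, 8683 and 10627 CPM at T30, against 2756, 4200 and 5407 CPM at T0, 1.90 to 2.07 times as high within each pair. Its change of 0.88 ± 0.35 did not pass without the pairs (edgeR adjusted p = 0.143) and did with them (0.89, edgeR adjusted p = 0.00237). CWP2 (-0.41), CIS3 (-0.52) and CCW12 (0.33) had changes smaller than 1 on the log2 scale that did not pass; CWP2 and CIS3 took the opposite sign, 0.13 and 0.06, when libraries were scaled to their S. pombe reads. TOS6 rested on 1 library. It had 0.930, 57.1 and 4.78 CPM at T30, against 1.71, 9.51 and 2.70 CPM at T0; its change was 1.90 ± 1.08 (edgeR adjusted p = 0.315), 1.82 with the pairs (edgeR adjusted p = 0.0237), and -1.17 without the T30 library of replicate 2 (edgeR adjusted p = 0.657).

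The salt responses of the 2 states were set against each other as the alpha factor change minus the asynchronous change. CWP1 (-1.41 ± 0.25, edgeR adjusted p = 0.00644) and SPI1 (-2.08 ± 0.33, edgeR adjusted p = 0.00345) had the smaller rise in alpha factor cells. PST1 (1.46 ± 0.32, edgeR adjusted p = 0.0158) and YGP1 (1.42 ± 0.37, edgeR adjusted p = 0.032) had the larger one. These 4 of 10 passed where 8.79% of genes did, 3.73% higher and 5.07% lower. YGP1 did not pass (edgeR adjusted p 0.0606 to 0.0828) without any 1 of 8 libraries, which were the T30 and T0 libraries of replicates 2 and 3 in alpha factor and of replicates 1 and 3 in asynchronous cells. With the replicate pairs 1800 of 5744 genes passed, 902 higher and 898 lower. SED1 (-1.06, edgeR adjusted p = 0.00648) and TOS6 (3.06, edgeR adjusted p = 0.00293) then passed too. In the unpaired fit without the alpha factor T30 library of replicate 2, the TOS6 difference was -0.18. Scaled to S. pombe reads without the pairs, none of the 4 passed (adjusted p 0.183 to 0.467 in edgeR) at nearly the same sizes, -1.48 for CWP1, -2.07 for SPI1, 1.44 for PST1 and 1.57 for YGP1. With S. pombe scaling and the pairs together, a combination chosen after seeing the data, all 4 passed (edgeR adjusted p 0.000264 to 0.0306).

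The starting levels of the states differed too. Before salt, alpha factor cells had more PIR3 than asynchronous cells, 24.3, 17.4 and 14.6 CPM against 3.67, 3.11 and 0.976 CPM, a difference of 2.76 ± 0.49 (edgeR adjusted p = 0.0021). They had more SED1, 2756, 4200 and 5407 CPM against 807, 1661 and 1147 CPM, a difference of 1.80 ± 0.36 (edgeR adjusted p = 0.00458). SPI1 (1.24 ± 0.25, edgeR adjusted p = 0.00562) and CWP1 (0.99 ± 0.18, edgeR adjusted p = 0.00289) were also higher. YGP1 was lower, with 14.7, 9.09 and 11.3 CPM in alpha factor cells against 42.4, 35.1 and 42.5 CPM in asynchronous cells, a difference of -1.75 ± 0.28 (edgeR adjusted p = 0.000999). TOS6 was much lower, with 1.71, 9.51 and 2.70 CPM against 59.0, 186 and 150 CPM, a difference of -4.58 ± 1.11 (edgeR adjusted p = 0.0149). So 4 genes were higher and 2 lower, where 12.8% of genes passed, 8.6% higher and 4.23% lower, and none of these 6 overlapped between the states. Scaled to S. pombe reads, CWP1 (0.74, edgeR adjusted p = 0.633), SPI1 (1.01, edgeR adjusted p = 0.467) and SED1 (1.60, edgeR adjusted p = 0.0759) no longer passed. With the replicate pairs 1719 of 5744 genes passed, 983 higher and 736 lower. CWP2 (0.61, edgeR adjusted p = 0.0415), CCW12 (-0.83, edgeR adjusted p = 0.00156) and CIS3 (-1.38, edgeR adjusted p = 0.000353) passed as well in that fit. TOS6 did not pass without the alpha factor T0 library of replicate 1 (-4.2, edgeR adjusted p = 0.0725) or of replicate 3 (-4.35, edgeR adjusted p = 0.069).

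At T30, when both states were in salt, the pattern differed. YGP1 had 275, 635 and 606 CPM in alpha factor cells and 596, 680 and 685 CPM in asynchronous cells, ranges that overlapped, and CWP1 had 889, 983 and 971 CPM in alpha factor cells and 1136, 1586 and 1280 CPM in asynchronous cells, which did not overlap. PIR3 (2.13 ± 0.39, edgeR adjusted p = 0.00514), CWP2 (1.44 ± 0.31, edgeR adjusted p = 0.0115) and PST1 (1.26 ± 0.23, edgeR adjusted p = 0.00488) were higher in alpha factor cells, and SPI1 (-0.85 ± 0.21, edgeR adjusted p = 0.0212) was lower. Thus 4 of 10 passed, where 12.5% of genes did, 7.49% higher and 5% lower. CWP2 did not pass without the asynchronous T30 library of replicate 1 (1.32, edgeR adjusted p = 0.0575) or 3 (1.26, edgeR adjusted p = 0.056). SPI1 did not pass without that of replicate 1 (-0.65, edgeR adjusted p = 0.112) or without the alpha factor T30 library of replicate 1 (-0.75, edgeR adjusted p = 0.0649) or 3 (-0.82, edgeR adjusted p = 0.0595). Scaled to S. pombe reads none of the 4 passed in edgeR (adjusted p 0.073 to 0.401). With the pairs 2162 of 5744 genes passed, 1146 higher and 1016 lower. CWP1 (-0.42, edgeR adjusted p = 0.0496), SED1 (0.75, edgeR adjusted p = 0.00582) and TOS6 (-1.88, edgeR adjusted p = 0.00264) then joined the 4. Without the alpha factor T30 library of replicate 2, TOS6 differed by -4.75 (edgeR adjusted p = 0.0188).

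Scaling to S. pombe reads, which asks about RNA per S. pombe cell rather than per total yeast RNA, moved the median of all genes after salt to 0.60 in asynchronous cells and 0.51 in alpha factor cells, against 0.05 and 0.00. The rises of SPI1, CWP1, YGP1, SED1 and PIR3 in asynchronous cells and of SPI1, CWP1, YGP1, PST1 and PIR3 in alpha factor cells passed under both scalings. The fall of CWP2 in asynchronous cells did not pass under S. pombe scaling (-0.62, edgeR adjusted p = 0.377). These are bulk samples, in which fewer cells of a kind and less RNA per cell cannot be told apart.

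Nocodazole, cycloheximide and the unspiked alpha factor libraries repeated the salt exposure without S. pombe. SPI1, CWP1 and YGP1 were higher after salt in all 4 of these comparisons. SPI1 had 846, 503 and 1238 CPM at T30 in nocodazole, against 9.90 and 17.6 CPM at T0, a rise of 5.92 ± 0.54 (edgeR adjusted p = 1.47e-06), and it rose by 3.4 ± 0.49 in alpha factor, 5.57 ± 0.54 in 3.5 h nocodazole and 6.19 ± 0.56 in cycloheximide 0.1. CWP1 had 1502, 1608 and 2083 CPM at T30 in nocodazole, against 219 and 313 CPM at T0, a rise of 2.66 ± 0.28 (edgeR adjusted p = 5.54e-06), and rises of 2.06 ± 0.27, 3.17 ± 0.30 and 4.05 ± 0.31 in those same 3 conditions. YGP1 had 1466, 2524 and 2778 CPM at T30 in nocodazole, against 218 and 330 CPM at T0, a rise of 3.0 ± 0.36 (edgeR adjusted p = 1.86e-05), and rises of 4.79 ± 0.41, 2.44 ± 0.36 and 4.23 ± 0.40 there. No T30 library of these 3 genes reached down to a T0 library in any of the 4 conditions. The largest edgeR adjusted p among these 12 rises was 0.000515.

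PIR3 rose by 2.40 ± 0.60 in nocodazole, 2.69 ± 0.64 in alpha factor and 2.31 ± 0.73 in cycloheximide 0.1 (edgeR adjusted p = 0.00581, 0.0197 and 0.0224). These calls of PIR3 were lost without nocodazole T0 replicate 1 (2.22), alpha factor T0 replicate 1 (2.88) or 2 (2.57) or the alpha factor 0.7N library (2.58), and cycloheximide T0 replicate 1 (2.64) or 2 (2.02) or T30 replicate 1 (1.94), with edgeR adjusted p of 0.0615 to 0.192; without the nocodazole 0.5N library the rise was 1.22. In 3.5 h nocodazole it had 378 and 285 CPM at T30, against 160 and 192 CPM at T0, which did not pass (1.1 ± 0.59, edgeR adjusted p = 0.18). SED1 rose by 1.05 ± 0.37 in nocodazole (edgeR adjusted p = 0.0416) and 1.37 ± 0.40 in cycloheximide 0.1 (edgeR adjusted p = 0.0148). SED1 did not pass without nocodazole T0 replicate 1 (0.69) or the nocodazole 0.5N (0.84) or 0.7N library (1.03), nor without cycloheximide T0 replicate 1 (1.38) or 2 (1.43) or T30 replicate 2 (1.38), with edgeR adjusted p of 0.053 to 0.372. Its values in 3.5 h nocodazole, 24178 and 12798 CPM at T30, against 11940 and 10038 CPM at T0, were the highest of any gene of the set but did not pass as a change (0.97 ± 0.40, edgeR adjusted p = 0.0812), and passed without T30 replicate 2 (1.47, edgeR adjusted p = 0.00951).

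CIS3 and TOS6 fell in cycloheximide 0.1. CIS3 had 38.2 and 66.3 CPM at T30, against 127 and 207 CPM at T0, a change of -1.78 ± 0.42 (edgeR adjusted p = 0.00395). TOS6 had 16.3 and 24.8 CPM at T30, against 76.5 and 144 CPM at T0, a change of -2.52 ± 0.43 (edgeR adjusted p = 0.000346). In the other 3 unspiked conditions neither passed, and TOS6 lay between 0.637 and 3.73 CPM in the alpha factor T30 and T0 libraries, against 4.36 to 12.9 CPM in those of 2 h nocodazole. Counted over the 10 genes, 4 were higher and none lower in alpha factor, where 5.86% of 5836 genes passed, 3.24% higher and 2.62% lower. In nocodazole 5 were higher and none lower, where 31.6% of genes passed, 14.8% higher and 16.8% lower. In 3.5 h nocodazole 3 were higher and none lower, where 28.8% passed, 14.1% higher and 14.7% lower, and in cycloheximide 0.1 5 were higher and 2 lower, where 33.7% passed, 16.3% higher and 17.4% lower.

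PST1 differed widely among the pooled libraries. In nocodazole at T30 it had 70.1 CPM in the unlabelled library, 1438 CPM in the 0.5N library and 134 CPM in the 0.7N library, against 106 and 139 CPM at T0. The pooled change was 2.15 ± 0.85 (edgeR adjusted p = 0.064), and the mean over the dose labels as separate groups, which leaves the spread between labels out of the error, was 0.92 (edgeR adjusted p = 0.00942). It passed without the unlabelled library (2.71, edgeR adjusted p = 0.01) or the 0.7N library (2.62, edgeR adjusted p = 0.0234). CWP2 had 93.0, 444 and 115 CPM in the same 3 libraries, and PIR3 had 41.3, 300 and 91.4 CPM, so the 0.5N library was the highest for all 3 genes. SPI1 was lowest in it, with 503 CPM against 846 and 1238 CPM. Without the 0.5N library CWP2 (-1.57, edgeR adjusted p = 0.00128) and CIS3 (-1.25, edgeR adjusted p = 0.00782) were lower after salt in nocodazole. Over the fits of this comparison that left out 1 library, 993 to 2139 of all genes passed, against 1845 with all libraries. With 1 library per dose label, no test between doses was made.

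Between the arrests before salt, YGP1 alone of the 10 passed. It had 218 and 330 CPM in nocodazole, against 12.1 and 15 CPM in alpha factor, a difference of 4.37 ± 0.42 (edgeR adjusted p = 2.16e-06), where 8.84% of genes passed, 3.99% higher and 4.85% lower. TOS6 had 6.76 and 9.45 CPM in nocodazole, against 1.63 and 2.23 CPM in alpha factor (2.14 ± 0.67, edgeR adjusted p = 0.0609). For the salt responses, nocodazole minus alpha factor, SPI1 differed by 2.52 ± 0.63 (edgeR adjusted p = 0.0485), the 1 gene of 10 to pass where 2.36% of genes did, 1.78% higher and 0.583% lower. It passed without the nocodazole 0.5N or the alpha factor 0.7N library and did not pass without any 1 of the other 8 (2.12 to 2.97, edgeR adjusted p up to 0.351). YGP1, with the larger rise in alpha factor cells, differed by -1.79 ± 0.48 (edgeR adjusted p = 0.0614). Without the nocodazole 0.5N library, YGP1 (-1.94, edgeR adjusted p = 0.0198), CWP2 (-1.44, edgeR adjusted p = 0.0402) and PST1 (-1.79, edgeR adjusted p = 0.00714) passed too, PST1 being at 0.73 with it. The 2.36% belongs to the fit with all libraries, where 138 genes passed, and is not the share beside these calls. Over the fits of this difference that left out 1 library, 12 to 730 of all genes passed.

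Nocodazole for 3.5 h was set against 2 h before salt. None of the 10 passed in edgeR, where 0.274% of genes did, 0.257% higher and 0.0171% lower, although 8 of the 10 had an unadjusted p under 0.05, where 9.63% of genes did, and DESeq2 called 6, where it called 110 genes, 1.69% of those it tested. PIR3 had 160 and 192 CPM after 3.5 h, against 22.9 and 31.0 CPM after 2 h (2.63 ± 0.63, edgeR adjusted p = 0.0978). SED1 had 11940 and 10038 CPM after 3.5 h, against 3020 and 5426 CPM after 2 h (1.3 ± 0.40, edgeR adjusted p = 0.209). CCW12 had 1724 and 3466 CPM after 3.5 h, against 709 and 944 CPM after 2 h (1.56 ± 0.38, edgeR adjusted p = 0.101). The groups did not overlap for any of these 3 genes; CWP1, with 250 and 264 CPM after 3.5 h and 219 and 313 CPM after 2 h, did overlap. The 10 genes together took 1.60% and 1.63% of counts after 3.5 h, against 0.46% and 0.77% after 2 h.

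**Figure D2:**
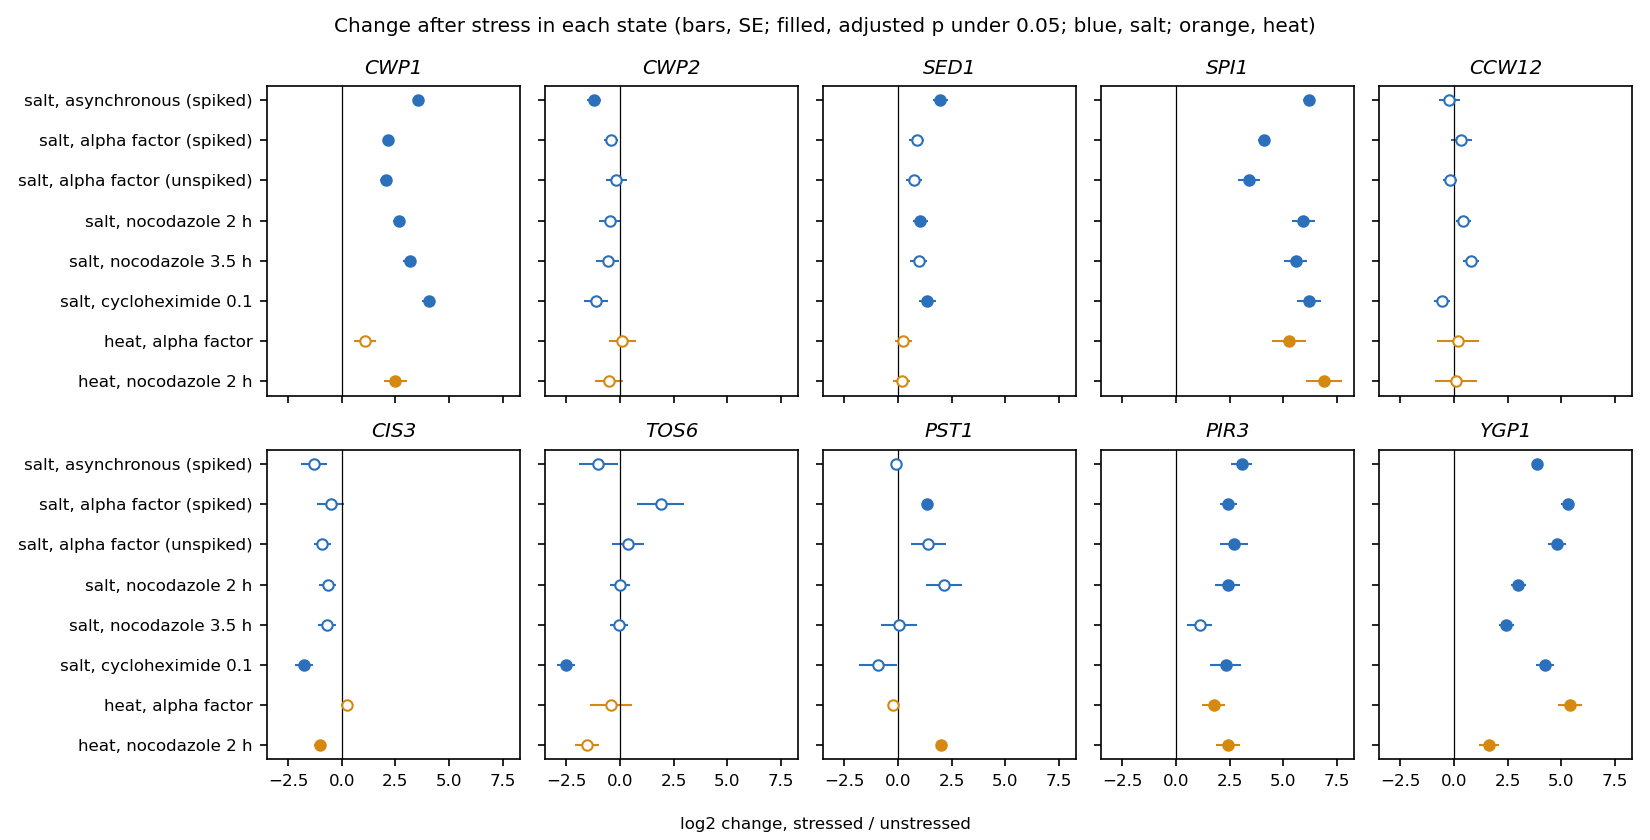
Log2 change after stress for each gene in 8 comparisons, stressed over unstressed, with SE bars; filled symbols passed at an adjusted p under 0.05, blue is salt and orange is heat. SPI1 and YGP1 are filled in all 8 comparisons and CCW12 in none, and CWP2, CIS3 and TOS6 are filled only to the left of 0.

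Cycloheximide 0.2, with 1 library per time in each table, gave values without a test. TOS6 had 13.1 CPM at T30 against 200 CPM at T0 in the spiked pair and 5.27 CPM at T30 against 140 CPM at T0 in the unspiked pair. CIS3 had 63.1 against 275 CPM in the spiked pair and 65.8 against 188 CPM in the unspiked pair. SPI1 had 1166 against 30.3 CPM in the spiked pair and 1271 against 19.7 CPM in the unspiked pair. In both pairs TOS6 and CIS3 were thus lower and SPI1 higher at T30. CCW12 had its highest level of all RNA libraries, 5189 CPM, at spiked cycloheximide 0.2 T0, where asynchronous T0 libraries had 1486, 3345 and 3084 CPM.

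Heat was compared at T10 against T0 in alpha factor and nocodazole cells. SPI1 had 528, 160 and 718 CPM at T10 in alpha factor cells, against 6.47 and 18.6 CPM at T0, where the 160 CPM belongs to the 33c library. YGP1 had 414, 180 and 428 CPM at T10, against 5.47 and 11 CPM at T0. SPI1 rose by 5.25 ± 0.78 (edgeR adjusted p = 0.00238) and YGP1 by 5.4 ± 0.56 (edgeR adjusted p = 0.000713), with the 33c library the lowest of the 3 for both. PIR3 rose by 1.75 ± 0.52 (edgeR adjusted p = 0.0484) but passed in only 1 of the 5 fits that left out 1 library, the one without T0 replicate 2 (2.6); the others gave 1.25 to 1.94 (edgeR adjusted p 0.0552 to 0.257). Without T0 replicate 2 CWP1 passed too (2.26, edgeR adjusted p = 0.0206), against 1.07 ± 0.51 (edgeR adjusted p = 0.188) with it. These 3 of 10 were higher and none lower, where 15.3% of 5689 genes passed, 7.05% higher and 8.24% lower.

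In nocodazole cells SPI1 had 502, 712 and 998 CPM at T10, against 6.85 and 6.35 CPM at T0, a rise of 6.89 ± 0.86 (edgeR adjusted p = 0.000229). PST1 had 162, 118 and 116 CPM at T10, against 34.9 and 34.3 CPM at T0, a rise of 2.00 ± 0.24 (edgeR adjusted p = 0.000198). CWP1 (2.49 ± 0.54), PIR3 (2.41 ± 0.55) and YGP1 (1.63 ± 0.45) also rose, and CIS3 fell, with 25.8, 37.3 and 22.8 CPM at T10 against 72.7 and 50.1 CPM at T0 (-1.03 ± 0.28, edgeR adjusted p = 0.0185). So 5 were higher and 1 lower where 33.1% of genes passed, 16.3% higher and 16.8% lower. Without T0 replicate 1, CWP1 (2.27), PIR3 (1.92), YGP1 (1.51) and CIS3 (-0.72) did not pass (edgeR adjusted p 0.0529 to 0.157), YGP1 did not without T0 replicate 2 (1.8) and CIS3 did not without the 37c library (-0.91). TOS6 passed without the 33c library (-2.23, edgeR adjusted p = 0.0171).

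The 2 arrests differed in heat for PST1 and YGP1. PST1 did not pass in alpha factor cells, with 33.6, 47.0 and 50.2 CPM at T10 against 51.8 and 55.0 CPM at T0, and the heat responses differed by 2.24 ± 0.33, nocodazole minus alpha factor (edgeR adjusted p = 0.0253). YGP1 differed by -3.77 ± 0.64 (edgeR adjusted p = 0.0352). Those 2 of 10 passed where 1.37% of genes did, 0.791% higher and 0.58% lower, and neither passed with 33c and 37c as groups of their own (edgeR adjusted p = 0.185 for both). Each passed in 3 of the 10 fits that left out 1 library: both without the unlabelled or the 33c nocodazole T10 library, PST1 without the 37c and YGP1 without the 33c alpha factor library. The other 7 fits gave 2.09 to 2.34 for PST1 and -4.44 to -3.33 for YGP1 (edgeR adjusted p up to 0.11).

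SED1 and CCW12 did not pass in either heat comparison. SED1 had 2170, 2355 and 2200 CPM at T10 in alpha factor cells against 2398 and 1560 CPM at T0, and 3825, 2831 and 1784 CPM at T10 in nocodazole cells against 3678 and 1479 CPM at T0. CCW12 had 411, 662 and 372 CPM at T10 in alpha factor cells against 80.6 and 770 CPM at T0, and 91.9, 738 and 420 CPM at T10 in nocodazole cells against 144 and 676 CPM at T0. In both genes the groups overlapped, and CCW12 was lower at T0 in replicate 1 than in replicate 2 of both arrests.

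Asynchronous cells had 1 heated and 1 unheated library, so their values have no test. SPI1 had 566 CPM in the heated library against 2.32 CPM in the unheated one, YGP1 had 303 against 35.3 CPM, and CWP1 had 147 against 40.6 CPM. SED1 had 1453 against 485 CPM, 3.0 times as much, and PST1 had 228 against 106 CPM. TOS6 had 6.56 CPM in the heated library against 54.5 CPM in the unheated one, CIS3 had 40.6 against 107 CPM, and CCW12 had 459 against 881 CPM. Thus SED1, which did not pass in either arrest, was among the higher genes of this pair, and TOS6, CIS3 and CCW12 were among the lower ones.

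In the time courses, of 1 library per point, the genes separated by timing. SPI1 was highest at the first time after heat, 528 CPM in alpha factor and 502 CPM in nocodazole at T10, and stood at 20.2 and 47.8 CPM by T40. PST1 and PIR3 were highest at the last heat time: PST1 had 508 CPM in alpha factor and 1652 CPM in nocodazole at T40, and PIR3 had 81.9 and 327 CPM. YGP1 after heat was 414 CPM at T10 and 27.4 CPM at T40 in alpha factor, whereas in nocodazole it was 310 CPM at T10 and 600 CPM at T40. After salt in alpha factor, SPI1 was highest at T15 (301 CPM), CWP1 at T30 (836 CPM), PIR3 at T45 (121 CPM) and SED1 at T60 (6812 CPM). CIS3 was lowest at T30 in that course, 19.4 CPM, and stood at 47.9 CPM at T60.

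**Figure D3:**
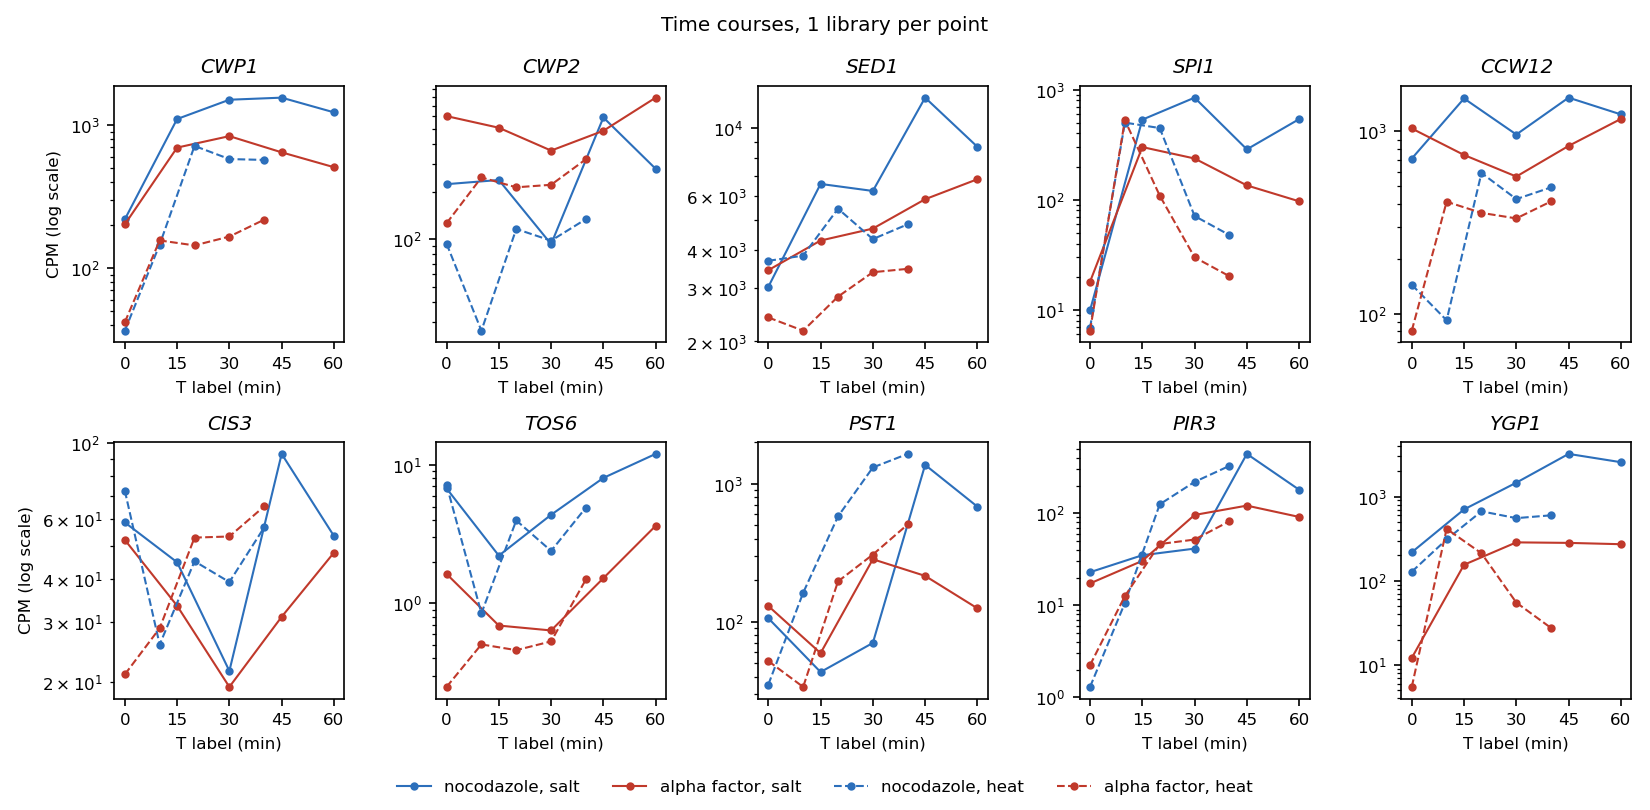
Level of each gene in CPM, on log axes, against the time label in minutes, in nocodazole (blue) and alpha factor (red) cells after salt (solid) and heat (dashed), 1 library per point. SPI1 is highest at T10 in both heat courses while PST1 and PIR3 are highest at T40, and the nocodazole salt course jumps at T45 for PIR3 (441 CPM) and PST1 (1375 CPM).

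The nocodazole salt course was less even. PIR3 read 41.3, 441 and 180 CPM at T30, T45 and T60, PST1 read 70.1, 1375 and 684 CPM, and CWP2 read 93.0, 590 and 279 CPM. SPI1 read 846, 287 and 540 CPM at the same times. Of the 10 genes, 5 (CWP2, SPI1, CIS3, PST1 and PIR3) thus lay more than 1.5-fold outside both neighbouring times at T45. The shape of this course after T30 rests on 1 library per time and on the time labels of those libraries, which the values alone cannot check.

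Ribosome loading was read from the asynchronous gradients, 2 at T30 and 2 at T0, each fraction scaled by its S. pombe reads. The polysome ratio is the amount in 2R to 6R> over that in RNP to 80S. CCW12, CIS3 and TOS6 were less loaded after salt. CCW12 had log2 ratios of -2.34 and -2.67 at T30, against -0.01 and 0.11 at T0, and its RNP share was 51.1% and 59.5% at T30, against 31.6% and 25.2% at T0. CIS3 had log2 ratios of -1.71 and -2.45 at T30, against 0.20 and -0.09 at T0, with RNP shares of 48.6% and 59.1% at T30, against 25.8% and 25.6% at T0. TOS6 had log2 ratios of -3.98 and -4.30 at T30, against -1.28 and -1.60 at T0, with RNP shares of 81.3% and 85.1% at T30, against 47.7% and 47.1% at T0. For each of these 3 genes every T30 gradient lay below every T0 gradient. Among the 5053 genes measured, CCW12 stood at percentiles 9.4 and 13.2 of the ratio at T30, against 88.2 and 93.3 at T0, and TOS6 at percentile 0.5 in both T30 gradients, against 61.4 and 63.7 at T0.

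SPI1 and PIR3 are given as values with no test, since they averaged at least 10 CPM over the 4 inputs only through the T30 inputs, where their levels are high. The log2 ratio of SPI1 was 1.21 and 0.14 at T30, against -3.01 and -3.07 at T0, its RNP share was 19.2% and 31.9% at T30, against 71.9% and 59.4% at T0, and its 6R> share was 46.2% and 14.3% at T30, against 3.43% and 1.43% at T0. At T0 these values rest on 46 and 204 reads over 9 fractions, at T30 on 14908 and 7151. PIR3 had log2 ratios of -0.77 and -1.87 at T30, against -1.60 and -5.19 at T0, ranges that overlapped, with 714 and 339 reads at T30, against 33 and 152 reads at T0.

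With a minimum of 10 CPM in the inputs of each time, 8 of the 10 genes were tested. The changes in log2 polysome ratio were -2.13 for CIS3, -2.56 for CCW12 and -2.70 for TOS6, each ± 0.48 (limma, Benjamini-Hochberg adjusted p = 0.00282, 0.000113 and 3.93e-05). These 3 of the 8 passed, all lower, where 1.12% of 4714 genes passed, 0.976% higher and 0.148% lower. With the minimum set on the mean of all 4 inputs instead, the same 3 genes were lower with the same changes. There 2.47% of 5053 genes passed, 2.3% higher and 0.178% lower, and the median change over all genes was 0.36. That setting also let in SPI1 (3.72) and PIR3 (2.08) through T30 alone, so their changes are given without a test. With 2 gradients per time, limma gave every gene the same SE, so these p-values rest on the spread of genes in general and not on that of each gene. Without any input minimum none of the 10 passed (limma adjusted p 0.107 to 0.635 for CCW12, CIS3, TOS6, SPI1 and PIR3). In fits on the mean of the inputs that left out 1 gradient, PIR3 ranged from 0.28 without T0 replicate 2 to 3.87 without T0 replicate 1. CCW12 did not pass without T0 replicate 2 (-2.5), nor CIS3 without T0 replicate 1 (-1.98) or 2 (-2.27). CWP1 was at 1.83 without T30 replicate 2, a fit with 1 gradient at T30. The median gene stood at -1.08 in that remaining T30 gradient, against -1.73 in the one left out.

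CWP1 and CWP2 stayed high in the order of genes at both times. CWP1 had log2 ratios of 2.24 and 0.53 at T30, against 0.78 and 0.04 at T0, and stood at percentiles 99.2 and 95.9 at T30, against 94.9 and 92.7 at T0. Its 6R> share was 64.5% and 29.4% at T30, against 35.6% and 16.2% at T0. CWP2 had log2 ratios of 0.65 and 0.17 at T30, against 0.16 and -0.26 at T0, with the largest share of its RNA never in 6R>; its 6R> share was 16.4% and 6.73% at T30, against 5.95% and 2.98% at T0, for a coding length of 279 bp, the shortest of the 10. Replicate 1 was above replicate 2 in both genes at both times. The median gene had the same order, -1.08 against -1.73 at T30 and -1.61 against -2.00 at T0.

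SED1, PST1 and YGP1 had changes of 0.03, -0.38 and 0.16, none of which passed. SED1 had 50.9% and 58.4% of its RNA in RNP at T30, against 55.6% and 45.5% at T0. YGP1 had log2 ratios of -0.36 and -1.41 at T30, against -0.93 and -1.16 at T0, on 10718 and 4583 reads at T30, against 193 and 471 reads at T0. PST1 had log2 ratios of -2.14 and -3.05 at T30, against -2.02 and -2.41 at T0. In each of these 3 genes the T30 and T0 log2 ratios overlapped. In the order of genes PST1 did not overlap, at percentiles 13.5 and 6.1 at T30, against 34.2 and 34.1 at T0, while YGP1 stood at 71.6 and 62.2 at T30, against 70.8 and 75.4 at T0.

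**Figure D4:**
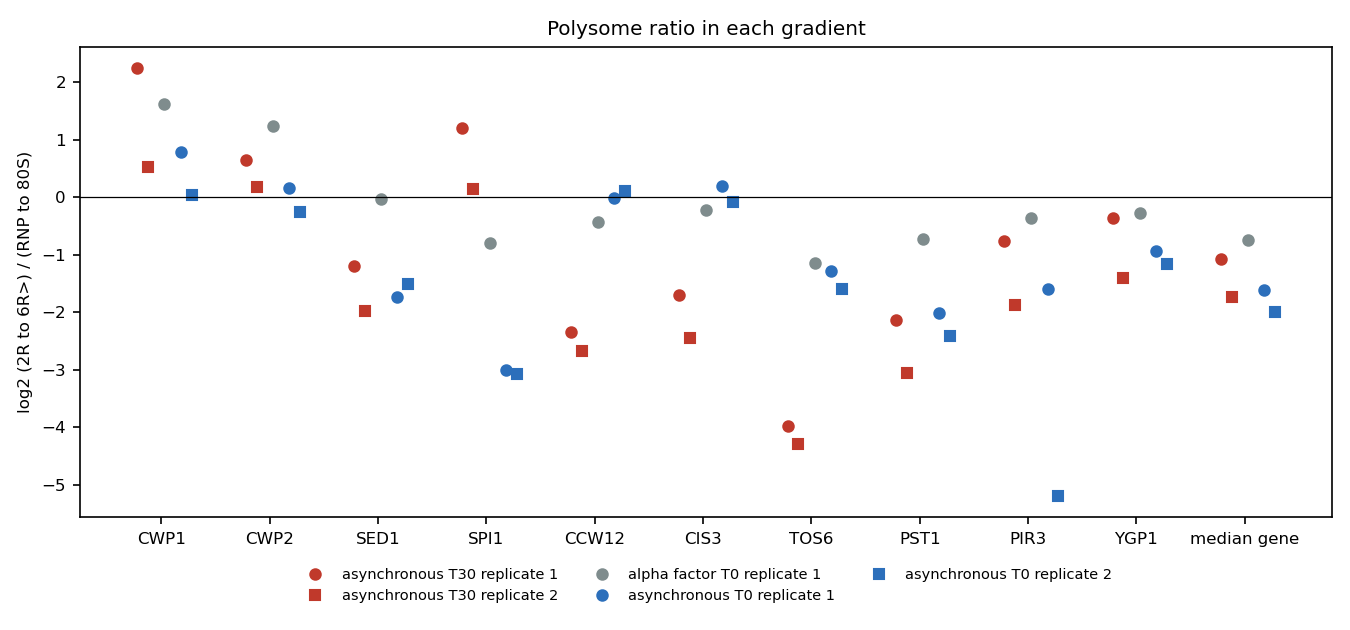
Log2 polysome ratio (2R to 6R> over RNP to 80S) of each gene and of the median gene in every gradient: asynchronous T30 (red), alpha factor T0 (grey) and asynchronous T0 (blue), circles for replicate 1 and squares for replicate 2. CCW12, CIS3 and TOS6 at T30 lie at -1.71 or below, apart from their T0 values, and SPI1 lies at 0.14 and 1.21 at T30 against -3.01 and -3.07 at T0.

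In the single alpha factor gradient before salt, CWP1 and CWP2 had the highest log2 ratios of the set, 1.62 and 1.23, against 0.78 and 0.04 for CWP1 and 0.16 and -0.26 for CWP2 in the 2 asynchronous T0 gradients. SPI1 had -0.80, against -3.01 and -3.07, on 777 reads, and SED1 had -0.04, against -1.73 and -1.51. CCW12 (-0.44) and CIS3 (-0.22) were the 2 genes below both asynchronous T0 values. The median gene stood at -0.74 in the alpha factor gradient, against -1.61 and -2.00, and with 1 gradient no test was made.

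**Figure D5:**
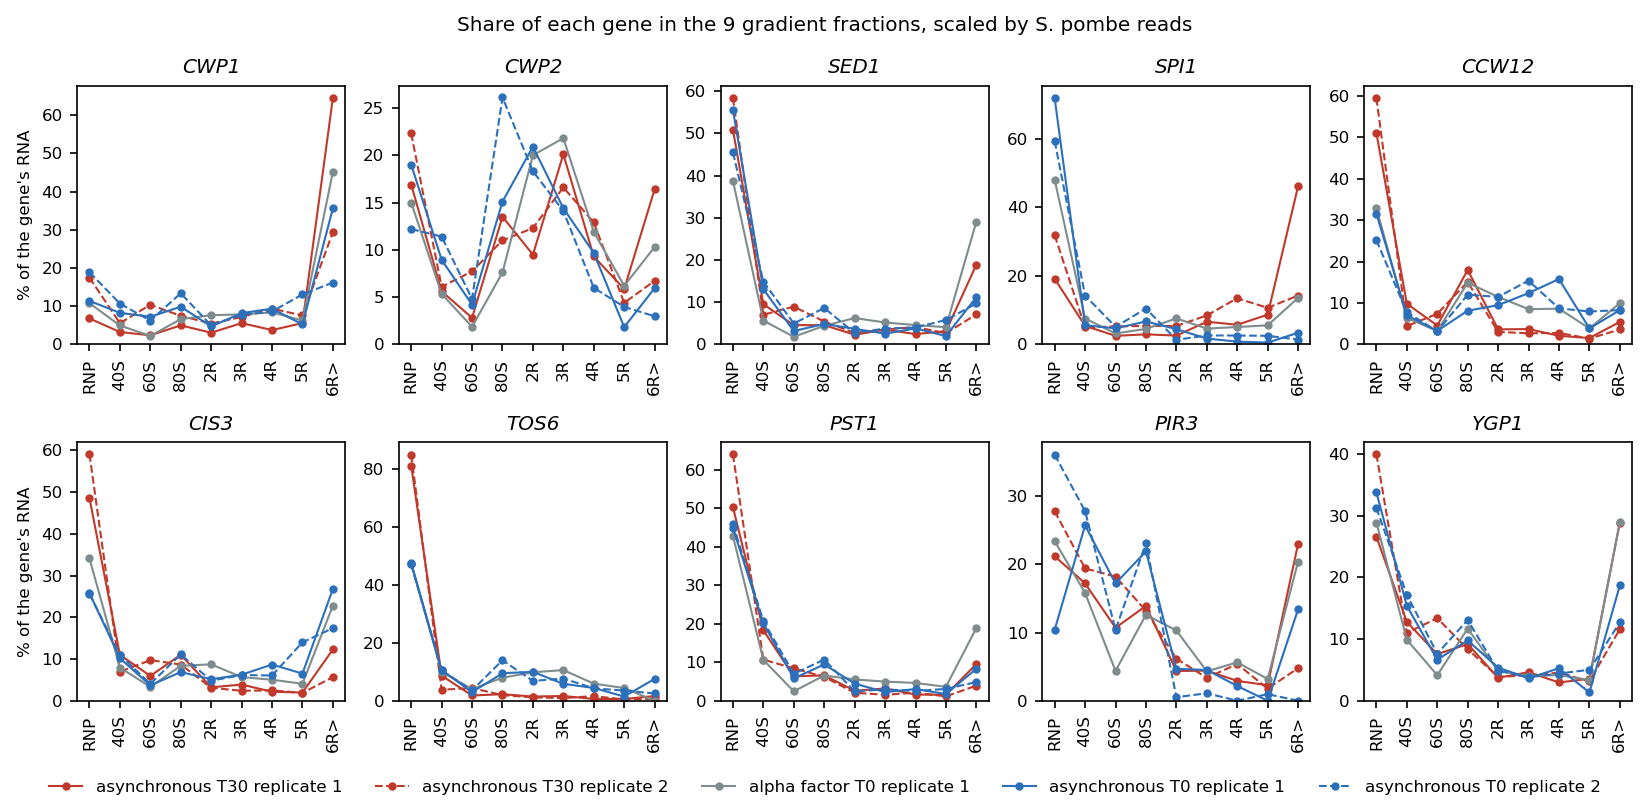
Share of each gene's RNA, in percent, over the 9 gradient fractions after scaling by S. pombe reads, for asynchronous T30 (red), alpha factor T0 (grey) and asynchronous T0 (blue), with replicate 2 dashed. CCW12, CIS3 and TOS6 pile up in RNP at T30 while CWP1 peaks in 6R> in most gradients and CWP2 is spread over 80S to 4R.

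The heaviest fraction alone was also set against the unfractionated input. None of the 10 passed at T30, at T0 or in the difference between the times; in the same 3 edgeR comparisons 0%, 0.0187% and 0% of 5348 genes passed. The members with an unadjusted p under 0.05 numbered 2, 2 and 1, where 14.2%, 10.5% and 4.41% of genes had one. DESeq2 called none of the members, where it called 3.33%, 0.644% and 0% of 6363 genes. It gave an adjusted p to only 2415 of those genes at T30 and 1429 at T0, and a gene without one could not be called. TOS6 had the lowest value, -1.44 ± 0.45 at T30 (edgeR adjusted p = 0.176), and CIS3 the highest at T0, 1.13 ± 0.43 (edgeR adjusted p = 0.42).

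Of 21 other structural wall proteins, 20 were tested for salt in asynchronous cells, where 3 were higher and 5 lower, beside 22.2% higher and 19.6% lower of all genes. Their median was -0.01, against 0.05 over all genes and 0.94 over the 10. The largest changes among those called were 6.56 ± 0.52 for SPS100, a homologue of YGP1, -3.01 ± 1.02 for DAN1 and -2.02 ± 0.21 for ECM33. Of 18 enzymes listed for wall remodelling, a list that also holds the phospholipase gene PLB2, 1 was higher and 11 lower, with a median of -0.96. PLB2 (-3.08 ± 0.37), the glucanosyltransferase gene GAS3 (-2.12 ± 0.17) and the yapsin gene YPS1 (2.04 ± 0.26) had the largest changes among them. In alpha factor cells, where 5.47% of all genes were higher and 3.62% lower, 3 of the 20 structural genes were higher and 2 lower, led by SPS100 (4.99 ± 0.47), PIR1 (2.01 ± 0.20) and FIT1 (1.5 ± 0.41). None of the 18 enzymes was higher there and 7 were lower, led by SCW11 (-2.19 ± 0.46), DSE2 (-1.88 ± 0.22) and SUN4 (-1.70 ± 0.29). For the polysome ratio with the minimum on the mean of the inputs, 15 of the 21 structural genes were tested, of which 1 was higher and 2 lower. None of the 18 enzymes passed, beside 2.3% higher and 0.178% lower of all genes. The higher gene was SPS100. With that minimum a gene can enter through its T30 level alone, and no result with the minimum at each time is given for these lists.

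In 2 h nocodazole, where 14.8% of all genes were higher after salt and 16.8% lower, 4 of the 21 structural genes were higher and 2 lower, and 1 of the 18 enzymes was higher and 4 lower. In 3.5 h nocodazole, beside 14.1% and 14.7% of all genes, 8 structural genes were higher and 1 lower, with a median of 1.0, and 2 enzymes were higher and 2 lower, with a median of 0.31. In cycloheximide 0.1, beside 16.3% and 17.4%, the structural counts were 3 higher and 5 lower and the enzyme counts 1 higher and 13 lower, with a median of -1.29. In unspiked alpha factor cells, beside 3.24% and 2.62%, they were 3 higher and none lower, and none higher and 4 lower. Heat in nocodazole, beside 16.3% and 16.8%, gave 2 higher and none lower of 16 structural genes tested, and 1 higher and 4 lower of the 18 enzymes. Heat in alpha factor, beside 7.05% and 8.24%, gave 2 higher and 1 lower, and none higher and 2 lower.

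Across the 66 RNA libraries, log2 levels of CWP1 and SPI1 had a Pearson correlation of 0.85, CWP1 and SED1 0.82, CWP1 and YGP1 0.81, and SPI1 and YGP1 0.81. CIS3 and TOS6 had 0.84, and SPI1 and CIS3 -0.41. The libraries share stresses, arrests and depth, so these values describe the set of conditions sampled. CWP1 with CWP2, which lie side by side, had 0.19 in the unspiked table (50 libraries) and -0.55 in the spiked one (16 libraries). Outside the set, out of 5157 genes averaging at least 10 CPM, the gene most like SPI1 was GRE3 (0.95), that most like CWP1 was GPP2 (0.95), that most like YGP1 was DDR2 (0.92) and that most like TOS6 was BUD9 (0.95). The closest to CWP2 was CCW14 (0.86), to CCW12 ACP1 (0.87), to PIR3 WIP1 (0.87), to SED1 ATG33 (0.85), to CIS3 SVL3 (0.84) and to PST1 HSP150 (0.71). PIR3 lies beside PIR1 and CIS3 beside HSP150 in the annotation; these PIR genes resemble each other, as do SED1 with SPI1 and YGP1 with SPS100, and the sources used here do not say how reads shared between them were counted.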

How the data were processed

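Counts per gene were deposited by the authors in 3 tables: RNA without S. pombe, RNA from cells mixed with S. pombe cells, and gradient fractions with S. pombe RNA. Per the submitters' processing notes, Trimmomatic 0.32, Bowtie2 and HTSeq 0.6.1 were used. No source used here names the genome build or says whether counting used strand, so no coordinates are given. Per the labels' protocols, rRNA was depleted and the kits differed between RNA and fraction libraries. A further 70 columns match no labelled sample and were not used.

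The members and both wall gene lists were chosen with earlier results of these data known. Symbols, neighbours and coding lengths come from RefSeq assembly R64. CPM is a gene's share of the S. cerevisiae counts of its library in counts per 1000000; rows of 2-micron plasmid genes and rows naming no gene (up to 0.00545% of counts in the spiked table) were left out. Changes come from edgeR 4.0.16 (TMM, filterByExpr, quasi-likelihood test, Benjamini-Hochberg over all genes, threshold 0.05) in R 4.3.3, fitted separately for the spiked (16 libraries), unspiked salt (22) and unspiked heat (12) libraries and the 8 asynchronous 6R> and input libraries; polysome ratios, with 1 read added at the deepest library's scale, were tested with limma 3.58.1. A minimum of 10 CPM was set on the mean of the inputs; the values with it set at each time are given first, since SPI1 and PIR3 met it on the mean only through T30. Named other genes are, for salt in the spiked libraries, the up to 3 called genes of each list with the largest absolute change, and the gene with the highest Pearson correlation of log2(CPM + 0.5). DESeq2 1.42.0, other size factors, no filter, a replicate block, S. pombe totals, separate dose labels and leaving out each library were tried. Same-numbered spiked libraries deviated together (r 0.313 to 0.706, median 0.597, over 18 pairs of groups), so their numbers were read as pairs. The reported spiked fits leave these pairs out, and fits with them are given as an alternative. In the other tables some of these correlations were below 0.1. No 2 replicates were copies: the lowest chi-square per degree of freedom over 32 replicate pairs was 6.86. The scripts were tested on simulated counts.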

Additional observations from a re-analysis of the deposited data

Results flagged for a closer look

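Each of the following passed in the reported fit, by a test of the difference itself between states, arrested or asynchronous. Of all genes, 8.79% passed for the spiked salt difference, 2.36% for the unspiked one and 1.37% for the heat difference. Scaled to S. pombe reads without the pairs, 0 of the 10 passed for the spiked difference. The same count, 0, held for the unspiked salt difference with RLE size factors and for the heat difference with separate dose labels. In the spiked libraries, alpha factor minus asynchronous, the salt response differed by -1.41 for CWP1, -2.08 for SPI1, 1.46 for PST1 and 1.42 for YGP1. CWP1, SPI1 and PST1 passed in all 12 fits that left out 1 library, and YGP1 failed to pass in 8 of them. In the unspiked libraries, nocodazole minus alpha factor, the salt response of SPI1 differed by 2.52 and failed to pass in 8 of 10 such fits. The heat response differed by 2.24 for PST1 and -3.77 for YGP1, each of which failed to pass in 7 of 10.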

How the results depend on the processing

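Of the counts of genes called among the 10, the replicate block gave 7 for alpha factor against asynchronous at T30 (4 without it), 2 for nocodazole against alpha factor before salt and for the nocodazole minus alpha factor salt difference (1 without it), and 1 for 3.5 h against 2 h nocodazole (0 without it). S. pombe scaling gave 0 for the alpha factor minus asynchronous difference (4 in the reported fit), 3 before salt (6) and 0 at T30 (4), and 3 for 6R> against input at T30 (0). With S. pombe scaling and the block together, chosen after seeing the data, the last was 5, CCW12 then at -1.43 (edgeR adjusted p = 0.0232; 0.18 in the reported fit). For the nocodazole minus alpha factor salt difference, RLE size factors gave 0 and separate dose labels and DESeq2 2 each (1 in the reported fit). Separate dose labels gave 0 for the heat difference (2). DESeq2 gave 2 for nocodazole against alpha factor before salt (1) and 6 for 3.5 h against 2 h (0). For the polysome ratio, no minimum in the inputs gave 0 and a minimum at each time 3 (5 with it on their mean, where SPI1 and PIR3 entered only through T30). Leaving out 1 library at a time gave 2 to 5 at T30, 0 to 4 for the nocodazole minus alpha factor salt difference, 3 to 6 for salt in nocodazole, 0 to 2 for the heat difference, 2 to 7 for heat in nocodazole and 2 to 6 for the polysome ratio; PST1 in the salt difference was 0.73, from -1.79 (edgeR adjusted p = 0.00714) without the nocodazole 0.5N library to 1.25 without the unlabelled one. The cause of these shifts was not tested. In the unspiked and gradient tables the numbers were not read as pairs. Values that passed in neither fit changed sign 111 times among 2168 alternatives.

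The number of all genes called moved by more than 1.5-fold in several settings. Under the block it was 1722 for salt in alpha factor (522 without it), 1800 for its difference from asynchronous (505), 1719 before salt (737), 2162 at T30 (717), 26 for 3.5 h against 2 h (16), 226 for the heat difference (78) and 1033 for the polysome ratio (125). Under S. pombe scaling it was 279, 68, 231 and 109 in the first 4 of these and 1432 for salt in asynchronous cells (2399), with 84.4% of calls higher there (53.1% in the reported fit), 99.3% in alpha factor (60.2%), 10.3% in the difference (42.4%), 61.5% before salt (67%) and 46.8% at T30 (60%). It was 6 and 748 for 6R> against input at T0 and T30 (1 and 0), and with the block too 34 and 743, and 1026 for salt in alpha factor. Fitting only the libraries compared gave 265 at T30. DESeq2 gave 526 for unspiked salt in alpha factor (342), 318 for the nocodazole difference (138), 110 for 3.5 h against 2 h, 282 for the heat difference, and 41 and 212 for 6R> against input. Separate dose labels gave 291, 376 and 0 for the nocodazole salt difference, heat in alpha factor (870) and the heat difference. No low-count filter gave 14, 233 and 5 for 6R> against input at T0, at T30 and their difference. For the polysome ratio, equal totals gave 1448, no minimum 0 and a minimum at each time 53. Leaving out 1 library at a time gave 199 to 409 for salt in alpha factor with S. pombe cells (522), 236 to 713 for its difference from asynchronous (505), 484 to 650 before salt (737), 382 to 850 at T30 (717), 78 to 315 for unspiked salt in alpha factor (342), 993 to 2139 in nocodazole (1845), 872 to 1978 in 3.5 h nocodazole (1679), 248 to 343 for nocodazole against alpha factor before salt (516), 12 to 730 for their salt difference (138), 0 to 4 for 3.5 h against 2 h (16), 265 to 766 for heat in alpha factor (870), 1209 to 1945 in nocodazole (1882), 0 to 106 for the heat difference (78), 14 to 737 for the polysome ratio (125), and 0 to 210, 0 to 1 and 0 to 76 for 6R> against input at T30, at T0 and their difference (0, 1 and 0). The all-gene shares beside the members' counts move with these. Groups of 2 or 3 libraries limit what these data show. So do few reads of SPI1 and PIR3 at T0, and of TOS6 in most alpha factor libraries at T0 and T30.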
